A study of Mus musculus with 8 samples.

Results

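The brush border hydrolases are digestive enzymes anchored in the microvilli of intestinal enterocytes. Of 19938 genes measured, 9 were taken by name as members: the disaccharidases Lct, Sis and Treh, the peptidases Anpep, Dpp4, Enpep, Mep1a and Mep1b, and the alkaline phosphatase Alpi. Each of the 9 had 1 probe set that named it alone. Expression was measured on 8 Affymetrix arrays hybridized with RNA from isolated epithelial cells. The donors were male mice of the outbred ICR stock, 8 weeks old, whose small intestine had been transfected in vivo 4 days earlier. The groups were siYAP/TAZ (3 arrays, siRNAs against YAP and TAZ), siGFP (3 arrays, a control siRNA against a jellyfish protein), shYAP/TAZ (1 array, expression plasmids for shRNAs against both) and shLacZ (1 array, a plasmid for a control shRNA against a bacterial enzyme). YAP and TAZ are transcriptional coactivators of the Hippo pathway that act mainly through TEAD factors, and the comparison addressed how the epithelium responds when both are lowered. All mice, controls included, had been transfected. The share of epithelial cells reached and the promoters of the plasmids are not stated in the labels. Nothing says that the arrays of a group came from separate mice, so a p-value here reflects only how far these samples lie apart, which may be technical spread.

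Enterocytes leave the crypt, climb the villus and build a carpet of microvilli, the brush border, as they mature. The hydrolases are inserted into that membrane with their active sites facing the gut lumen, where they finish the digestion of sugars and peptides next to the transporters that take up the products. They are widely used as markers of mature enterocytes. Their levels differ along the crypt and villus axis and along the length of the gut, and lactase is high in suckling mammals and declines at weaning in most of them. Because RNA came from a mixture of cells, fewer cells of a type and less RNA per cell cannot be told apart.

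Neither targeted gene was measurably lower, and group names below are those of the labels. In the siRNA arm (siYAP/TAZ against siGFP) the log2 difference was -0.12 for Yap1 (95% confidence interval -0.84 to 0.61) and -0.28 for Wwtr1, which encodes TAZ (-1.09 to 0.53). Between shYAP/TAZ and shLacZ, 1 array each, it was -0.09 for Yap1 and 0.06 for Wwtr1. Wwtr1 had normalized log2 intensities of only 5.36 to 6.52, low values on which a fall would be hard to see. Median deposited intensity per array lay between 76.4 and 95.5, and Pearson's r between arrays, taken across genes, lay between 0.765 and 0.963. The 10 enterocyte identity genes, among them Fabp1 and Rbp2, were all outside the dimmest 6646 genes, and so were all 9 hydrolases.

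None of the 9 hydrolases differed between siYAP/TAZ and siGFP beyond the spread between arrays. Within groups Lct, Treh and Mep1a varied widely from array to array, Sis varied about as much as a typical gene, and Anpep varied less. In the mean of the siRNA arm 8 of the 9 were lower and Dpp4 was higher, where 53.6% of all genes were lower. The median log2 difference of the 9 was -0.39, against -0.02 over all genes. Without siYAP/TAZ 1 only 5 of the 9 were lower, with a median of -0.015, and without siGFP 3 also 5, with a median of -0.16. In the shRNA arm (shYAP/TAZ against shLacZ, 1 array each and therefore no test) 5 of the 9 were lower, beside 52.2% of all genes. There Lct and Alpi were lower by 2-fold or more, as were 2.76% of all genes.

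Of the disaccharidases, Lct (lactase, which splits milk sugar) had normalized log2 intensities of 7.78, 10.53 and 12.22 in siYAP/TAZ 1, 2 and 3, against 9.39, 12.01 and 11.87 in siGFP 1, 2 and 3. The deposited intensities behind these were 229, 1409 and 4791 in siYAP/TAZ and 699, 4096 and 3847 in siGFP. The groups overlapped: the highest and the lowest values both belonged to siYAP/TAZ, and the lowest siGFP value was that of the array also numbered 1. Lct averaged 10.17 ± 2.24 in siYAP/TAZ and 11.09 ± 1.47 in siGFP (SD, n = 3 each), a log2 difference of -0.92 (95% confidence interval -3.37 to 1.54, SE 1.08; two-sided exact permutation p = 0.7; limma adjusted p = 1.00). The smallest p that this exact test allows is 0.1. In the shRNA arm Lct had 8.32 in shYAP/TAZ, against 11.86 in shLacZ. That is a log2 difference of -3.55, or 11.7-fold lower, the 7th lowest of 19938 genes in that pair of arrays. Without siYAP/TAZ 1 the siRNA difference of Lct was 0.28.

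Sis, the sucrase-isomaltase that digests sucrose and starch fragments, was steadier. It had 11.71, 12.47 and 12.64 in the siYAP/TAZ arrays, against 12.26, 12.61 and 12.88 in the siGFP arrays. Its values in the shRNA arm were 11.998 in shYAP/TAZ and 12.45 in shLacZ. Each array labelled as a knockdown lay below the control that the labels assign to it, by 0.55, 0.14, 0.24 and 0.45 on the log2 scale, yet the siRNA groups overlapped because the arrays of a group lay further apart than that. The siRNA difference was -0.31 (95% confidence interval -1.10 to 0.48, SE 0.35; exact permutation p = 0.5; limma adjusted p = 1.00).

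Treh, the trehalase that splits the sugar of fungi and insects, had 7.50, 10.72 and 11.66 in siYAP/TAZ and 8.65, 11.04 and 11.54 in siGFP. The shRNA arrays had 9.46 in shYAP/TAZ and 10.40 in shLacZ. As for Lct, both arrays numbered 1 were the lowest of their groups and siYAP/TAZ 3 the highest of all 8. The siRNA difference was -0.45 (95% confidence interval -2.90 to 2.0, SE 1.08; exact permutation p = 0.7; limma adjusted p = 1.00), which became 0.78 when siYAP/TAZ 1 was left out and 0.12 when siGFP 3 was.

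The promoter windows of the 3 disaccharidase genes are shown because Lct and Treh varied far more between arrays than Sis, and because intestinal factors of the CDX, HNF1 and GATA families are known to act on the lactase and sucrase-isomaltase promoters. RefSeq windows run from 250 bases before to 50 bases after the annotated start on GRCm38.p6, 5′ to 3′ along the gene's strand, and 8 of the 9 members matched. Capitals mark every match found on either strand. CDX motifs were searched as TTTATNG, with TTTAC as the other form accepted. HNF1 half-sites were searched as GTTAAT. For GATA factors the letters were AGATAA, with TGATAA as the other form accepted. For TEAD factors they were GGAATG, and for the TATA box TATAAA. Lct lies at chr1:128328269-128328568 on the minus strand, Sis at chr3:72967814-72968113 on the minus strand and Treh at chr9:44672983-44673282 on the plus strand.
Lct: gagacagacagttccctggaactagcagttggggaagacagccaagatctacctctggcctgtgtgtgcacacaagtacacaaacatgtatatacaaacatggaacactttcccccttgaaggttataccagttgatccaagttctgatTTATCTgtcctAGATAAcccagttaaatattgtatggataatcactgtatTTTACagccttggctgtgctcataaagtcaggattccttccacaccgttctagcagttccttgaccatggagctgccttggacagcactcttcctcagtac
Sis: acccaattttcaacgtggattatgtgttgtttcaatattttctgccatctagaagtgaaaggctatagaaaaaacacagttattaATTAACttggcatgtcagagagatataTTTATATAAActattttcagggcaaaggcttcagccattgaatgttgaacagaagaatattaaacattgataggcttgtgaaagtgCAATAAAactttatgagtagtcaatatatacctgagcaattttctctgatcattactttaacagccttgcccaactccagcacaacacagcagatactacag
Treh: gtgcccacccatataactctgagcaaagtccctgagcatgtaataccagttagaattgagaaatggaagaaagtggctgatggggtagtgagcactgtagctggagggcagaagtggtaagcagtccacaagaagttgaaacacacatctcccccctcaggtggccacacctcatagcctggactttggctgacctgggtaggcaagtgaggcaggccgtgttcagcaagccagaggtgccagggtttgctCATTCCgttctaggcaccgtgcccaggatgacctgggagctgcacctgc
Counting the first transcribed base as 1, the Lct window held a CDX match from -51 to -47 and a pair of GATA matches, on the forward strand from -90 to -85 and on the reverse strand from -101 to -96. The Sis window held an HNF1 half-site on the reverse strand from -165 to -160, a CDX match on the reverse strand from -52 to -46, and TATA box matches on both strands between -138 and -129 that overlap each other. In Treh the only match was to the TEAD motif, on the reverse strand from 2 to 7, just after the start. GC content was 44.7% for Lct, 34.0% for Sis and 54.7% for Treh.

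**Figure D1:**
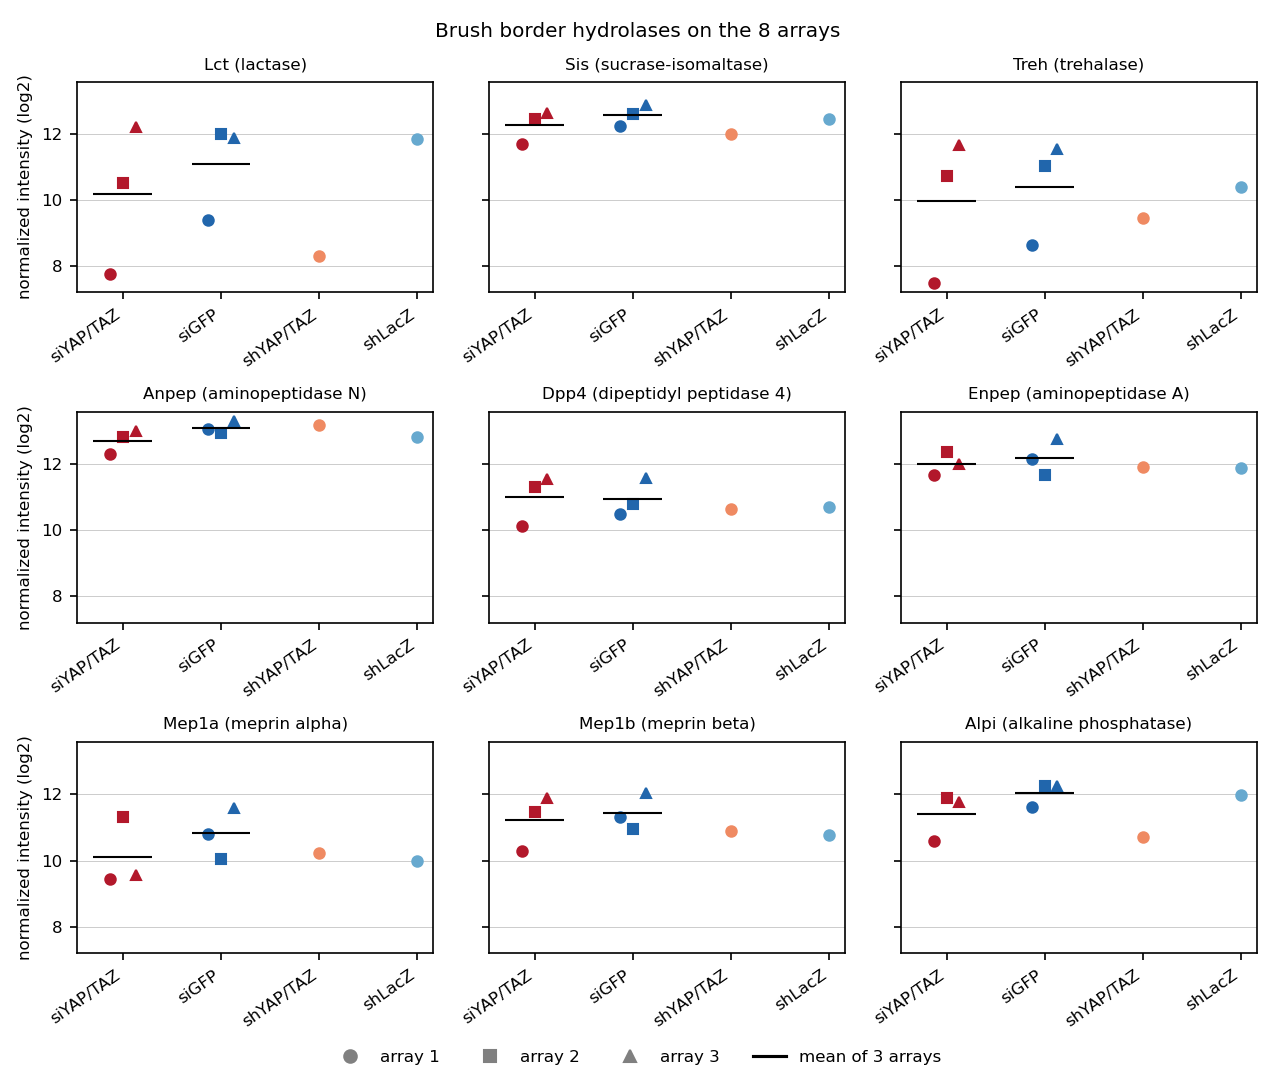
Normalized log2 intensity (vertical axis) of each of the 9 hydrolases by group (horizontal axis), with 1 point per array, the marker shape giving the array number and a line at the mean of 3 arrays. Lct runs from 7.78 to 12.22 and Treh from 7.50 to 11.66, while Anpep stays between 12.32 and 13.30, and the siYAP/TAZ and siGFP points overlap in every panel.

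Among the peptidases, Anpep, the aminopeptidase N that removes neutral residues from peptide ends, had 12.32, 12.82 and 12.99 in siYAP/TAZ, against 13.05, 12.95 and 13.30 in siGFP. In the shRNA arm it had 13.18 in shYAP/TAZ and 12.82 in shLacZ. Anpep was the steadiest member, yet 2 of the 3 siYAP/TAZ arrays were below every siGFP array and the third lay between them. It averaged 12.71 ± 0.35 in siYAP/TAZ and 13.10 ± 0.18 in siGFP (SD, n = 3 each), a log2 difference of -0.39 (95% confidence interval -1.08 to 0.30, SE 0.30; exact permutation p = 0.2; limma adjusted p = 1.00). The shRNA difference was 0.36, in the other direction.

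Dpp4, which removes dipeptides from peptide ends and inactivates incretin hormones, had 10.14, 11.33 and 11.55 in siYAP/TAZ and 10.48, 10.80 and 11.58 in siGFP, with 10.65 in shYAP/TAZ and 10.71 in shLacZ. The groups overlapped widely. Its siRNA difference was 0.05 (95% confidence interval -0.98 to 1.08, SE 0.45; exact permutation p = 1.0), and it turned to -0.029 without normalization between arrays and to between -0.22 and -0.029 when siYAP/TAZ 2, siYAP/TAZ 3, siGFP 1 or siGFP 2 was left out. Enpep, the aminopeptidase A that removes acidic residues and cleaves angiotensin II, had 11.68, 12.37 and 11.996 in siYAP/TAZ and 12.16, 11.68 and 12.76 in siGFP, with 11.92 in shYAP/TAZ and 11.88 in shLacZ. Here the lowest siYAP/TAZ and siGFP values were nearly equal. The difference was -0.18 (95% confidence interval -1.01 to 0.64, SE 0.36; exact permutation p = 0.6), or 0.09 without siGFP 3.

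Mep1a and Mep1b encode the alpha and beta subunits of the meprins, zinc proteases that cleave larger peptides and matrix and mucus proteins. Mep1a had 9.45, 11.33 and 9.57 in siYAP/TAZ, against 10.80, 10.06 and 11.60 in siGFP, and 10.24 in shYAP/TAZ against 9.98 in shLacZ. Mep1b had 10.30, 11.48 and 11.89 in siYAP/TAZ, against 11.31, 10.97 and 12.03 in siGFP, and 10.91 in shYAP/TAZ against 10.79 in shLacZ. The subunits parted in siYAP/TAZ 3, where Mep1a was near its lowest value and Mep1b near its highest. The siRNA difference was -0.71 for Mep1a (95% confidence interval -2.01 to 0.60, SE 0.57; exact permutation p = 0.4) and -0.21 for Mep1b (SE 0.47, -1.28 to 0.85; exact permutation p = 0.8). By number, Mep1a differed by -1.35, 1.27 and -2.03 and Mep1b by -1.01, 0.52 and -0.14. Mep1b turned to 0.25 without siYAP/TAZ 1 and to 0.08 without siGFP 3.

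The Mep1a promoter window is shown because this gene had the widest spread of the peptidases. It lies at chr17:43502724-43503023 on the minus strand of GRCm38.p6, has 42.3% GC, and is printed with the same capitals.
Mep1a: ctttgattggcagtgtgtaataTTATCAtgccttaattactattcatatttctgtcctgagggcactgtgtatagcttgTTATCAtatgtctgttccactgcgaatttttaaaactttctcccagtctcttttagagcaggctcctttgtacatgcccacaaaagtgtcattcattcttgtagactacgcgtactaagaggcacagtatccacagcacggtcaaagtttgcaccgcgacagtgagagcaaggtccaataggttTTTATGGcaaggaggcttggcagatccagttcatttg
It held GATA matches on the reverse strand from -228 to -223 and from -171 to -166, and a CDX match on the forward strand from 14 to 20. Anpep had no match to any motif searched and a GC content of 72.3%. Dpp4 held 1 CDX match overlapping a TATA box match, 1 GATA and 1 TEAD match, and Enpep held TATA box matches only.

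Alpi, the intestinal alkaline phosphatase that dephosphorylates luminal lipids and bacterial lipopolysaccharide, had 10.61, 11.90 and 11.76 in siYAP/TAZ, against 11.62, 12.25 and 12.24 in siGFP. In the shRNA arm it had 10.71 in shYAP/TAZ and 11.98 in shLacZ. Both siYAP/TAZ 2 and siYAP/TAZ 3 lay above siGFP 1 and below the other siGFP arrays. Alpi averaged 11.42 ± 0.71 in siYAP/TAZ and 12.04 ± 0.36 in siGFP (SD, n = 3 each), a log2 difference of -0.62 (95% confidence interval -1.54 to 0.31, SE 0.41; exact permutation p = 0.3; limma adjusted p = 1.00). In the shRNA arm the difference was -1.27, or 2.41-fold lower.

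The Alpi window is shown because Alpi, with Sis, was lower in every comparison of a knockdown-labelled array with its control. It lies at chr1:87101557-87101856 on the minus strand of GRCm38.p6, has 56.3% GC, and is printed with the same capitals.
Alpi: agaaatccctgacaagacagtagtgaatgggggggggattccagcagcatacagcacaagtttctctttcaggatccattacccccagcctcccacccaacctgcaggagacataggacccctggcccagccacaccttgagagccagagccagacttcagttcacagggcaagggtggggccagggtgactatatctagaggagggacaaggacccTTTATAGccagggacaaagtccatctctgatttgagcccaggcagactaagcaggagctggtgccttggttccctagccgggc
Its CDX match on the forward strand from -33 to -27 overlaps a TATA box match on the reverse strand from -33 to -28. Among the 8 member windows, CDX matches were in 5, where 37.8% of 32851 windows of the same length held one. A TATA box was in 4 (13.6% of all windows), GATA in 3 (18.6%), TEAD in 2 (14.7%) and the HNF1 half-site in 1 (7.1%). A match is a description of letters, not of a bound site.

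**Figure D2:**
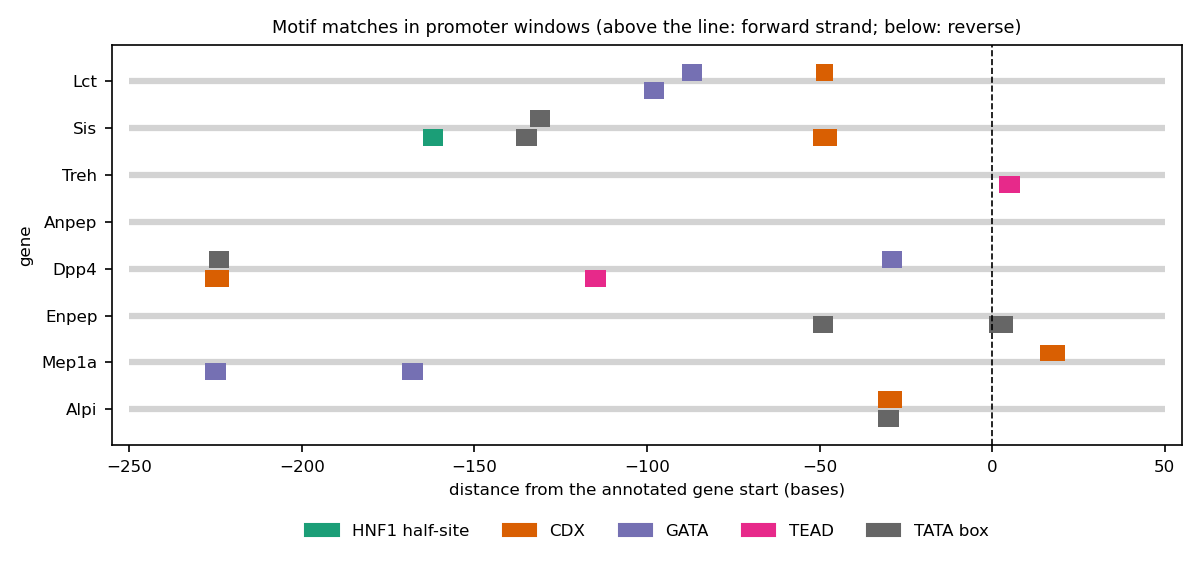
Positions of motif matches in the promoter windows of 8 hydrolase genes, with distance from the annotated start in bases on the horizontal axis and 1 gene per row. Bars above a row are matches on the forward strand and bars below it matches on the reverse strand, coloured by motif, and the Anpep row carries none.

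Read together, the siRNA comparison called 0 of the 9 hydrolases with limma at an adjusted p of 0.05, and 0% of 19938 genes. At an unadjusted p under 0.05 it held 237 genes, or 1.19%, and no hydrolase. Leaving out siYAP/TAZ 1 gave 13 called genes and 1360 at an unadjusted p under 0.05, with no hydrolase called. Leaving out siYAP/TAZ 2 put Mep1a under 0.05 without adjustment, at -1.31 (95% confidence interval -2.43 to -0.20; limma adjusted p = 1.00). For none of the 9 did the siYAP/TAZ and siGFP arrays fail to overlap, where 4.59% of all genes had groups that did not. Across all 8 arrays, with the arm as a term, Alpi had a log2 difference of -0.78 (95% confidence interval -1.53 to -0.03, SE 0.34; unadjusted p = 0.0439; limma adjusted p = 1.00). It was the only hydrolase under 0.05 without adjustment, as were 2.68% of genes, and 0 genes passed the adjusted threshold. Alpi was no longer under 0.05 in 7 of 15 alternatives. Those were leaving out siYAP/TAZ 1, siGFP 2 or siGFP 3, centring arrays on the 75th percentile, subtracting a constant, leaving out dim genes, and a trended prior, with unadjusted p up to 0.106. Lct differed by -1.58 there, with an interval of -3.73 to 0.58, and was under 0.05 without adjustment in 5 of the 15 alternatives, among them leaving out siYAP/TAZ 3 (-2.41) or siGFP 1 (-2.29).

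The 4 comparisons of a knockdown-labelled array with the control that the labels assign to it use different arrays. Array numbers were not taken to pair the samples, so these comparisons are descriptive. Sis and Alpi were lower in all 4, as were 8.95% of all genes. Lct was lower by 1.62 in siYAP/TAZ 1, by 1.49 in siYAP/TAZ 2 and by 3.55 in shYAP/TAZ, and higher by 0.34 in siYAP/TAZ 3. Anpep was lower by 0.73, 0.14 and 0.31 in the siRNA arm and higher by 0.36 in the shRNA arm. The test of the difference between arms, which takes the lone shRNA arrays to vary like the siRNA arrays, gave a limma adjusted p of 1.00 for each of the 9 and called 0 genes, with 70 genes (0.351%) and no hydrolase at an unadjusted p under 0.05. For Lct the siRNA difference minus the shRNA difference was 2.63, with an interval of -2.28 to 7.54.

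**Figure D3:**
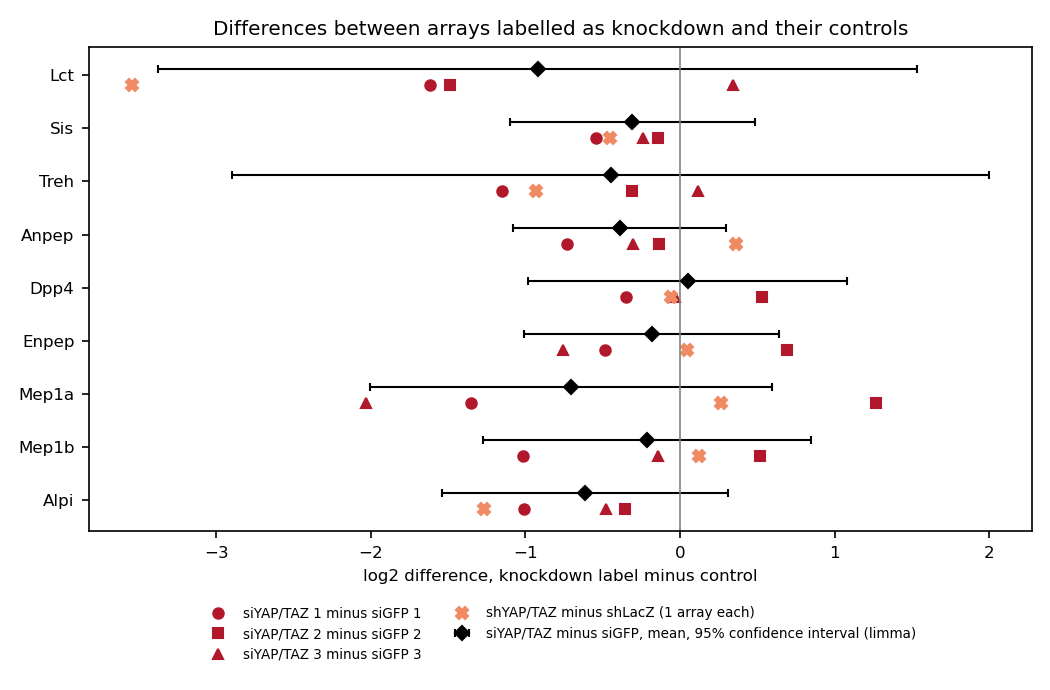
Log2 difference (horizontal axis) of each hydrolase (vertical axis). Black diamonds with bars give the siYAP/TAZ minus siGFP mean and its 95% confidence interval from limma, red markers the siRNA arrays by number and crosses shYAP/TAZ minus shLacZ, and every interval spans 0, with the widest for Lct (-3.37 to 1.54) and Treh (-2.90 to 2.0).

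How far each gene varied within groups differed by member. The residual SD of Lct was 1.90 and that of Treh 1.89, both at percentile 99.8 of all genes, against a median gene of 0.42. Mep1a had 0.92 (percentile 91.9), whereas Sis had 0.41 (percentile 48.3) and Anpep 0.28 (percentile 19.8). From the lowest to the highest of the 8 arrays Lct spanned 21.7-fold and Treh 17.9-fold, Mep1a 4.43-fold, Mep1b 3.32-fold, Alpi 3.13-fold and Dpp4 2.72-fold. Sis spanned 2.25-fold and Anpep 1.97-fold.

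All 9 hydrolases had their lowest value in siYAP/TAZ 1, as did 19.6% of all genes. The highest value was in siGFP 3 for 6 of the 9, where 21.8% of genes had theirs, in siYAP/TAZ 3 for Lct and Treh, and in siGFP 2 for Alpi. In siYAP/TAZ 1, 12 of 15 genes of microvillus structure and 6 of 14 other brush border hydrolases were also at their lowest, and so were 6 of 7 markers of smooth muscle and fibroblasts. Of the other enterocyte lists, that held for 4 of 10 genes of enterocyte identity, a share near that of the other hydrolases. The villus tip had 2 of 8, the transcription factors 3 of 13 and the proximal small intestine 1 of 10. The summed intensity of the enterocyte identity genes was 31371 in siYAP/TAZ 1 and lowest in siGFP 1, at 28211, and that of the villus tip genes was 10836 in siYAP/TAZ 1 and lowest in siGFP 1, at 8217. All 9 mitotic genes measured had their highest value in siYAP/TAZ 1, but only 1 of 10 crypt base stem cell genes did. The share of all genes highest in that array was not counted. Mki67, a marker of cycling cells named after its values were seen, had 8.98, 6.61 and 5.93 in siYAP/TAZ, 8.83, 8.36 and 6.28 in siGFP, 8.59 in shYAP/TAZ and 8.39 in shLacZ. The summed intensity of the mitotic genes was 451 to 3899 in siYAP/TAZ, 451 to 3289 in siGFP, 2311 in shYAP/TAZ and 2227 in shLacZ. That of the crypt base stem cell genes was 2926 in siYAP/TAZ 1, below siGFP 1 (6786), siGFP 2 (5540) and shLacZ (3569). The part of cycling cells in the hydrolase values was not tested.

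Some genes of the ileum, the last stretch of the small intestine, varied over a wider range than any hydrolase. Fabp6, the ileal bile acid binding protein, named after its values were seen, had 8.75, 11.93 and 4.40 in siYAP/TAZ and 11.16, 4.24 and 10.45 in siGFP, with 4.27 in shYAP/TAZ and 4.33 in shLacZ. The 3 arrays with the highest Fabp6, siYAP/TAZ 2, siGFP 1 and siGFP 3, were also the 3 with the highest Mep1a. By number, Fabp6 differed by -2.41, 7.69 and -6.05, beside the -1.35, 1.27 and -2.03 of Mep1a. Slc10a2, the ileal bile acid transporter, also named after its values were seen, had 9.28, 9.22 and 4.55 in siYAP/TAZ and 8.56, 4.79 and 8.85 in siGFP, with 6.53 in shYAP/TAZ and 4.55 in shLacZ. It was highest in siYAP/TAZ 1, the array in which Mep1a was lowest. Not all ileal genes followed Fabp6. Cubn had 5.97, 10.75 and 8.899 in siYAP/TAZ, 10.96, 11.52 and 11.69 in siGFP, and 4.37 in shYAP/TAZ. In shLacZ it had 10.95, and its shRNA difference of -6.57 was the lowest of all genes. Mptx1 had 8.33 in siGFP 2 and 8.498 in shLacZ, where Fabp6 was low, but 6.77 in siGFP 3. Slc51a, named after its values were seen, was highest in the same 3 arrays as Fabp6. Of 8 ileal genes measured, 7 were outside the dimmest 6646 genes, and their summed intensity was 3233 to 10842 in siYAP/TAZ, 4717 to 10857 in siGFP, 3064 in shYAP/TAZ and 5050 in shLacZ. The part of the sampled stretch of gut in the Mep1a values was not tested.

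**Figure D4:**
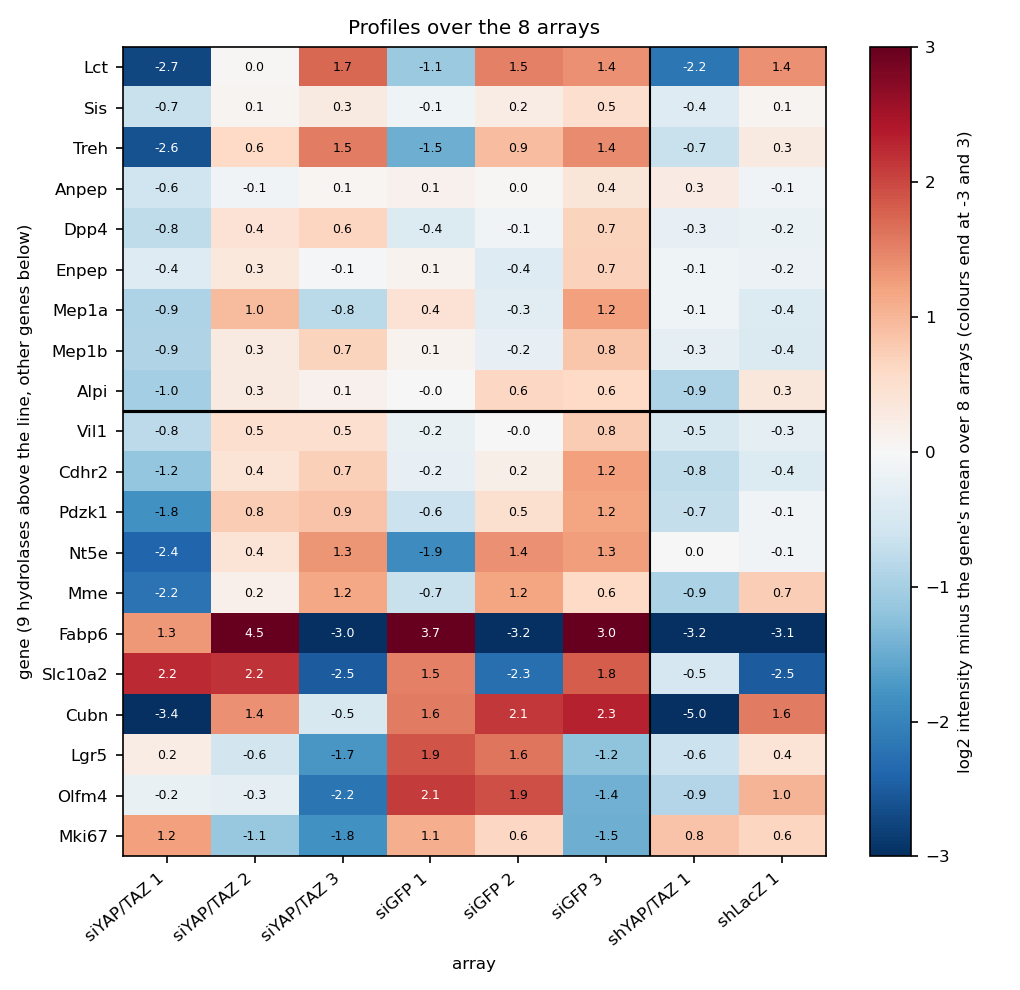
Log2 intensity of each gene minus its own mean over 8 arrays, with the 9 hydrolases above the line and 11 other genes below it in rows and the arrays in columns, on a colour scale that ends at -3 and 3. The siYAP/TAZ 1 column is lowest for all 9 hydrolases, and the Fabp6 and Slc10a2 rows are above their means in siYAP/TAZ 1, siYAP/TAZ 2, siGFP 1 and siGFP 3.

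The genes nearest in profile were found among 13291 genes by the root mean square of the 8 differences between centred log2 values, a measure in which small means alike. Nearest to Lct were Sec14l2 at 0.50, Odf3b at 0.54 and Podn at 0.64. Nearest to Treh were Nt5e at 0.38, Cyp3a25 at 0.50 and Osbpl6 at 0.50. Nt5e, the ecto-5'-nucleotidase of the cell surface, had 7.48, 10.27 and 11.17 in siYAP/TAZ and 7.96, 11.22 and 11.12 in siGFP, with 9.86 in shYAP/TAZ and 9.74 in shLacZ, so that the arrays numbered 1 were again the lowest. Nearest to Mep1a were Trpv3, Neu1 and Lamb3, at 0.22, 0.31 and 0.33. Nearest to Alpi were Sparc, Ptgr1 and Sacm1l, at 0.14, 0.17 and 0.18. The distance is not scaled to a gene's spread, so steadier members have closer neighbours by construction. Nearest to Anpep was Olfr906 at 0.06, and nearest to Enpep was BC065397 at 0.07. Both neighbours were dim, and centring hides this. Olfr906 had 5.62 to 6.43, against 12.32 to 13.30 for Anpep. BC065397 had 5.98 to 7.10, against 11.68 to 12.76 for Enpep. The nearest were Nemf for Dpp4 at 0.08, Grina for Sis at 0.09 and Sema4b for Mep1b at 0.12. Within the family, Dpp4 and Mep1b were the closest pair, at 0.23.

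Of 14 further brush border hydrolases measured, 11 were lower and 3 higher in the mean of the siRNA arm, with a median log2 difference of -0.47, and none passed limma's adjusted threshold. The largest differences were those of Xpnpep2, an aminopeptidase that acts beside proline (-0.96), Plb1, a phospholipase (-0.95), Tmprss15, the enteropeptidase that activates trypsinogen (0.71), and Mme, neprilysin (-0.67). The Tmprss15 difference rested on siYAP/TAZ 3, which had 7.23, whereas the other 7 arrays had 5.04 to 5.25. Plb1, shown by the brightest of its 7 probe sets, had 10.59, 11.44 and 6.03 in siYAP/TAZ and 11.15, 7.56 and 12.19 in siGFP. It had 9.89 in shYAP/TAZ and 9.02 in shLacZ. Plb1 was highest in siGFP 3, siYAP/TAZ 2 and siGFP 1, as was Mep1a. It was also high in siYAP/TAZ 1, the array in which Mep1a was lowest. In the shRNA arm 6 of the 14 were lower by 2-fold or more, beside the 2.76% of all genes. They were Naaladl1 (-1.07), Xpnpep2 (-1.53), Mme (-1.67), Dpep1 (-1.07), Asah2 (-1.23) and Enpp7 (-2.05), of which Naaladl1, Dpep1, Asah2 and Enpp7 are named after their values were seen. Enpp7, the intestinal alkaline sphingomyelinase, and Asah2, the neutral ceramidase, act in turn on dietary sphingomyelin. They were the 2 of the 14 that were lower in all 4 comparisons, as were 8.95% of all genes. Between siYAP/TAZ 3 and siGFP 3 Asah2 differed by only -0.0076, which is next to no difference.

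Of 15 genes measured that build the microvillus, 12 were lower and 3 higher in the siRNA arm, with a median of -0.15 there and -0.20 in the shRNA arm. The largest siRNA differences were those of Pdzk1, a scaffold for apical transporters (-0.41), Cdhr2, a cadherin that links microvillus tips (-0.40), Slc9a3r1, another scaffold (-0.35), and Pls1, an actin bundler (-0.23). Of 13 enterocyte transcription factors measured, 9 were lower and 4 higher, with a median of -0.31 in the siRNA arm and 0.25 in the shRNA arm. They were led by Maf (-0.59), Hnf4g (-0.51), Elf3 (0.48) and Gata5 (-0.43). For Elf3, an epithelial ETS factor, all siYAP/TAZ arrays lay above all siGFP arrays, as for 1.6% of all genes, and limma's adjusted p was 1.00.

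**Figure D5:**
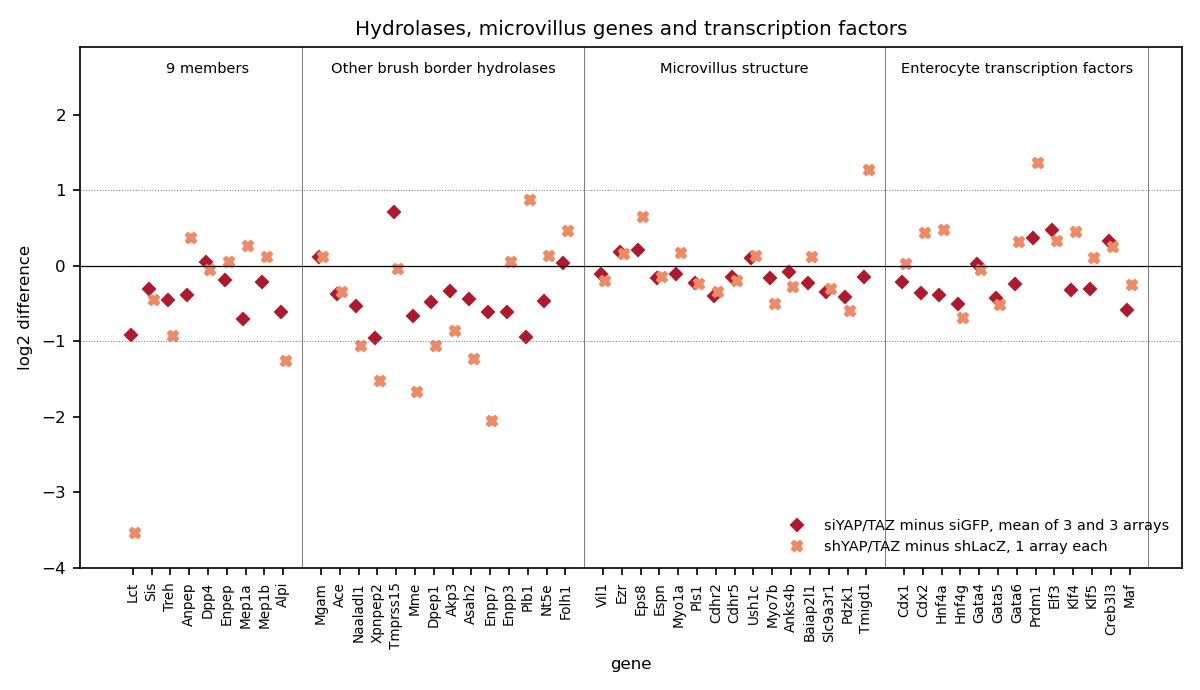
Log2 difference (vertical axis) for each gene (horizontal axis) of 4 groups, the 9 members, other brush border hydrolases, microvillus structure and enterocyte transcription factors. Diamonds give siYAP/TAZ minus siGFP, crosses shYAP/TAZ minus shLacZ and dotted lines 2-fold, and the lowest cross is that of Lct at -3.55.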

How the data were processed

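The deposited files hold linear intensity values for 28853 probe sets on each array. Per the labels, biotin-labelled material was made from total RNA with an Affymetrix WT Terminal Labeling kit. How the authors corrected background, summarised probes and scaled the arrays is not given in the labels. The lowest value is 16.0005; if a constant was added, differences of dim genes are understated. The intensities were put on the log2 scale and quantile normalized, and each of 19938 genes was represented by its brightest probe set naming 1 gene. Groups were compared in R 4.3.3 by limma 3.58.1 (eBayes after lmFit); p-values were adjusted over all genes by Benjamini-Hochberg (threshold 0.05), beside an exact permutation test per hydrolase. The fits were tested on simulated data with 200 changed genes. The simulated noise was independent between genes and arrays, so deviations that many genes of an array share were not covered. Arrays have no read depth, and their number limits the precision. The members, gene lists and tests were chosen with earlier results of these data known. Named genes are the 9 members, Yap1 and Wwtr1, up to 4 genes per related list with the largest siRNA differences, the 3 nearest profiles per member, and exceptions stated in the text. Alternatives covered normalization, probe set choice, the constant, dim genes, the prior, array weights, a replicate block and leaving out arrays.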

Additional observations from a re-analysis of the deposited data

Results flagged for a closer look

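With the main processing the siRNA mean difference and the shRNA difference had opposite signs for all 5 peptidases. How many of all genes had opposite signs was not counted. For Dpp4 both differences were near 0, at 0.05 and -0.06. Without normalization the siRNA difference of Dpp4 was -0.029, the same sign as its shRNA difference. The shRNA difference of Enpep ran from -0.021 to 0.046 across the alternatives of processing. Among the 5 peptidases the gap between arms was widest for Mep1a (-0.97, SE 1.15). Anpep was flagged because its siRNA differences by number all had the same sign. It was lower in all 3 siYAP/TAZ arrays than in the siGFP arrays of the same number, by 0.73, 0.14 and 0.31. It was higher in shYAP/TAZ than in shLacZ by 0.36 on the log2 scale. The siRNA difference minus the shRNA difference was -0.75 (95% confidence interval -2.14 to 0.63, SE 0.61; limma adjusted p = 1.00), so the difference between arms was not larger than the spread between arrays, and the shRNA side rests on 1 array a group.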

How the results depend on the processing

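No hydrolase passed the adjusted threshold in any of 15 alternatives of the siRNA comparison or of the 8-array comparison; the lowest limma adjusted p was 0.266 for Dpp4 in the siRNA arm and 0.0704 for Alpi over all 8 arrays, both with array weights. Array weights turned the median of the 9 to 0.13 in the siRNA arm and 0.024 over all 8 arrays. They turned the siRNA differences of Lct to 0.28, Treh to 0.73, Enpep to 0.13 and Mep1b to 0.55, and the 8-array differences of Anpep to 0.15, Enpep to 0.064, Mep1a to 0.024 and Mep1b to 0.18, and called 265 genes over all 8 arrays. The cause was not tested. Without normalization Dpp4 was -0.029 in the siRNA arm and -0.061 over all 8 arrays, and with arrays centred on the 75th percentile it was -0.014 over all 8.

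Leaving out 1 siRNA array at a time called between 0 and 13 genes in the siRNA arm, 13 of them without siYAP/TAZ 1, and 0 over all 8 arrays. The siRNA differences then ran from -1.94 to 0.28 for Lct, -1.33 to 0.78 for Treh, -0.22 to 0.48 for Dpp4, -0.44 to 0.094 for Enpep and -0.55 to 0.25 for Mep1b. Over all 8 arrays they ran from -1.21 to 0.28 for Treh, -0.18 to 0.32 for Dpp4, -0.30 to 0.080 for Enpep and -0.35 to 0.21 for Mep1b. In the siRNA arm Sis ran from -0.49 to -0.029, Anpep from -0.53 to -0.20, Mep1a from -1.31 to -0.32 and Alpi from -0.85 to -0.21, with the value nearest 0 without siYAP/TAZ 1, or for Mep1a without siGFP 3. Leaving out both arrays numbered 1, chosen after seeing the data, called 61 genes in the siRNA arm and 10 over all 8, and turned Mep1b to 0.19 and 0.16. Counts at an unadjusted p under 0.05 ran from 136, with the dimmest genes left out, to 3896, with array weights, in the siRNA arm. Over all 8 arrays they ran from 379, with the dimmest genes left out, to 3305, with array weights.

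The replicate number as a block called 1 gene in the siRNA arm and 4 over all 8 arrays, none of them a hydrolase. Under the block Lct over all 8 arrays had an interval of -2.65 to -0.50 (limma adjusted p = 0.436) and Alpi one of -1.26 to -0.29 (adjusted p = 0.366). Without adjustment, limma's fit with the block put Lct and Alpi under 0.05 in the siRNA arm, and Lct, Alpi and Treh over all 8 arrays. Deviations from the group mean correlated, across genes, at 0.75, -0.13 and 0.57 between same-numbered arrays, and 3 of 6 arrays were most like the array of their own number, so the numbers were not taken to pair the samples. With 3 arrays a group, the siRNA intervals of all 9 hydrolases reach a 2-fold difference in at least 1 direction. Those of Lct and Treh reach well beyond it, and that of Mep1a reaches -2.01.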
